A study of Mus musculus with 18 samples.

Results

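The 34 genes described here mark macrophages and, more widely, leukocytes. They comprise 3 regulators of the lineage, 8 membrane proteins of leukocytes in general, and 12 surface, sensing and other marker proteins of macrophages. The rest are 6 proteins of the lysosome and of the oxidase that makes superoxide, and 5 proteins of signalling and actin. The list was set by gene name, and each gene was read from its brightest probe. Of the 34 genes, 33 had a probe on the array and 32 passed the filter on dim probes, out of 22843 features tested in all. Clec7a, which encodes the fungal glucan receptor dectin-1, had no matched probe. Fgr, a Src-family kinase of myeloid cells, was well above background on 0 arrays of day 0, 1 array of day 10 and 0 arrays of day 22, with median levels of -6.25, -6.77 and -7.04, and was not tested.

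RNA came from explants of mouse dorsal root ganglia, C57BL/6J strain, taken at embryonic stage E13.5 and kept on matrigel in growth medium for 12 days. Cultures were lysed then (day 0), or 10 or 22 days after a switch to medium that lets Schwann cells myelinate the axons (day 10 and day 22). The labels name no transgene and no drug, all samples are labelled control, and no group stayed in growth medium, so days in the new medium and age of the culture cannot be told apart. Each day had 3 batches, each a pool of embryos, and 2 technical arrays per batch, 18 one-colour arrays in all. Sensory neurons and Schwann cells were in the cultures at every day: all 10 sensory neuron markers listed and all 8 Schwann cell markers were well above background on 18 of 18 arrays.

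A level is the log2 intensity of a probe minus that of its array's 75th percentile, and it compares a gene with itself across arrays, not with another gene. Each change is a difference of such levels ± its standard error from limma, fitted to 9 batch values (n = 3 batches per day), with p-values adjusted by Benjamini-Hochberg over all 22843 features and a threshold of 0.05. The deposited value table and the array files disagree on which batch 12 of the 18 arrays belong to, always within the same day. Each test was therefore run with both assignments, and the words rose and fell are kept for genes that passed with both. Adjusted p-values are those of the array files' batches unless the value table is named.

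As background, macrophages arise in the embryo from yolk sac and liver precursors and settle in nearly every tissue, peripheral ganglia and nerves included. The receptor Csf1r carries the survival signal from its ligands Csf1 and Il34, and the transcription factor PU.1, encoded by Spi1, opens macrophage enhancers together with Irf8. In nerves, macrophages engulf myelin and cell debris, using receptors such as Trem2 and Msr1, which feed engulfed material to the lysosome.

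PU.1 binds DNA at a GAGGAA core, often as GAGGAAGT, and with interferon regulatory factors at a joint site, here GGAA, any 2 bases, then GAAA. RefSeq promoter windows (GRCm38.p6, from 250 bases before to 50 bases after the annotated start) matched 23 of the 34 genes and were searched on both strands, and the longer site contains the core. The core stood in the windows of 14 of the 23 genes (60.9%) and of 31.3% of 27025 genes. The longer site stood in 4 of the 23 (17.4%; Cd53, Cd37, Ctss and Vav1) and in 3.69% of genes, and the joint site in 2 of the 23 (8.70%; Clec7a and Cybb) and in 3.16% of genes. A match is letters in a window and no measure of binding. The 4 windows with the longer site and that of Cybb, the catalytic oxidase subunit with the joint site, are given in the direction of transcription because their genes appear throughout the results; capitals mark the core, in Cybb the core and the joint site that overlaps it, and TTCCTC is the core read on the other strand.
Cd53 (chr3:106790100-106790399, minus strand): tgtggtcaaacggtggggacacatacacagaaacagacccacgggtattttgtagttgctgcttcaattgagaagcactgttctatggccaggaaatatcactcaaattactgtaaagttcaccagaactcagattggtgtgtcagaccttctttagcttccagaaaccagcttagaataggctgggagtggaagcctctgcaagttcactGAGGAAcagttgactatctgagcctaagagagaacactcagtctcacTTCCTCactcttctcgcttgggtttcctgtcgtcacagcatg
Cd37 (chr7:45238790-45239089, minus strand): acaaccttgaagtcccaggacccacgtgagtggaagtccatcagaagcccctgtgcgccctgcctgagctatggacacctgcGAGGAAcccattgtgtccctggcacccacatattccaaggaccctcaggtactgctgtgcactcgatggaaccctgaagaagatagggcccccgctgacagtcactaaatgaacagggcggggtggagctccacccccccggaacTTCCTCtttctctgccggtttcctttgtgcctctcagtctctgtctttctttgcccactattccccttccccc
Ctss (chr3:95526536-95526835, plus strand): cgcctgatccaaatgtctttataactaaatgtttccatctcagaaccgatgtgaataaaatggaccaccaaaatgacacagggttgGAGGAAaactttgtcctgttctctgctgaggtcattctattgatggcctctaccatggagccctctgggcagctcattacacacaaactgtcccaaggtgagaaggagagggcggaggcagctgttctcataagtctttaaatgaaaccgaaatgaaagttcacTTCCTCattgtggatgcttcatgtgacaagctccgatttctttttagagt
Vav1 (chr17:57278850-57279149, plus strand): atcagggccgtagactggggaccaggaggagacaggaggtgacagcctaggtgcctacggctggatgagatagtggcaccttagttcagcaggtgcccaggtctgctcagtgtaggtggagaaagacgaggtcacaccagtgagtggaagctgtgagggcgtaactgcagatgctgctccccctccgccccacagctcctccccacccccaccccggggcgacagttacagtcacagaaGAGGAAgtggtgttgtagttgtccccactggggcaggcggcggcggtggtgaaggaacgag
Cybb (chrX:9469275-9469574, minus strand): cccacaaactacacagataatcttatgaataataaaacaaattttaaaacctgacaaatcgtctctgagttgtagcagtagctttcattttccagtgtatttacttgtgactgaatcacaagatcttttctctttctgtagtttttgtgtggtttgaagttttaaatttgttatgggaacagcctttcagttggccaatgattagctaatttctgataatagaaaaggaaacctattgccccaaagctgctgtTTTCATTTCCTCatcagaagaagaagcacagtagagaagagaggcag

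Over the whole course, 27 of the 32 genes tested were higher at day 22 than at day 0 with both batch assignments, and 0 were lower. Of all features, 12.6% were higher and 18.6% lower by the same rule. The changes of the 27 genes lay between 1.63 (Cd37) and 5.18 (Gpnmb) on the log2 scale, or 3.10-fold to 36.2-fold, and the median over the 32 was 3.07, beside -0.08 over all features. With the array files' batches alone 29 of 32 were higher (17.1% of features), and with the value table's 27 (13%), or 30 where the value table's batch was also a block (13.6%). In the same 27 genes, all 6 arrays of day 22 lay above all 6 arrays of day 0, as they did for 9.57% of features. The other 5 genes, Cd86, Coro1a, Cx3cr1, Itgam and Ly86, had overlapping days. The arrays lay on 3 slides that hold several days each, and 30 genes were higher with slide as a block. The median change was 4.20 within slide 1 and 2.96 within slide 2, and slide 3 held too few arrays for a value. Fits within a slide took single arrays as units, not batch values. By the array files, the 2 day 22 arrays of slide 1 are technical arrays of batch 1, so only the size is given here.

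Most of the 32 genes were detected before the myelination medium was added: 27 were well above background on all 6 arrays of day 0. The exceptions were Spi1 and Cybb (3 arrays each), Cd86 and Msr1 (4 arrays each) and Ptprc (5 arrays), which passed the filter through their later days. Of the 27 genes above background throughout day 0, 23 were higher at day 22 with both assignments. Over all features tested that share was 12.6%, and it was not computed for features above background throughout day 0. In bulk RNA, more cells of a type and more RNA per cell cannot be told apart, and that holds for every rise given here.

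The regulators of the lineage rose together. Csf1r had levels of 1.62, 3.05 and 3.49 at day 0 (lowest, median and highest of 6 arrays), 3.21, 4.03 and 4.86 at day 10, and 4.10, 5.35 and 6.59 at day 22. Every day 22 array was above every day 0 array, while day 10 overlapped both. The change from day 0 to day 22 was 2.59 ± 0.42, or 6.00-fold (adjusted p = 0.00149, and 0.0117 with the value table's batches). Spi1 was dimmer, at -7.33, -5.55 and -4.78 at day 0, -5.68, -4.36 and -3.73 at day 10, and -3.88, -2.60 and -1.43 at day 22. Its probe was well above background on 3, 5 and 6 arrays of those days, and the change over the course was 3.09 ± 0.40 (adjusted p = 0.000505 and 0.00667). Since its day 0 mean includes arrays near background, the size is uncertain: it was 1.101 to 4.07 over the alternatives, lowest with normexp and quantile normalization. Irf8 lay at -2.96, -1.74 and -1.29 at day 0, -1.50, -0.60 and 0.24 at day 10, and -0.23, 1.21 and 2.58 at day 22. Its days were apart between 22 and 0 alone, with a change of 3.15 ± 0.43 (adjusted p = 0.000648 and 0.00574).

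**Figure D1:**
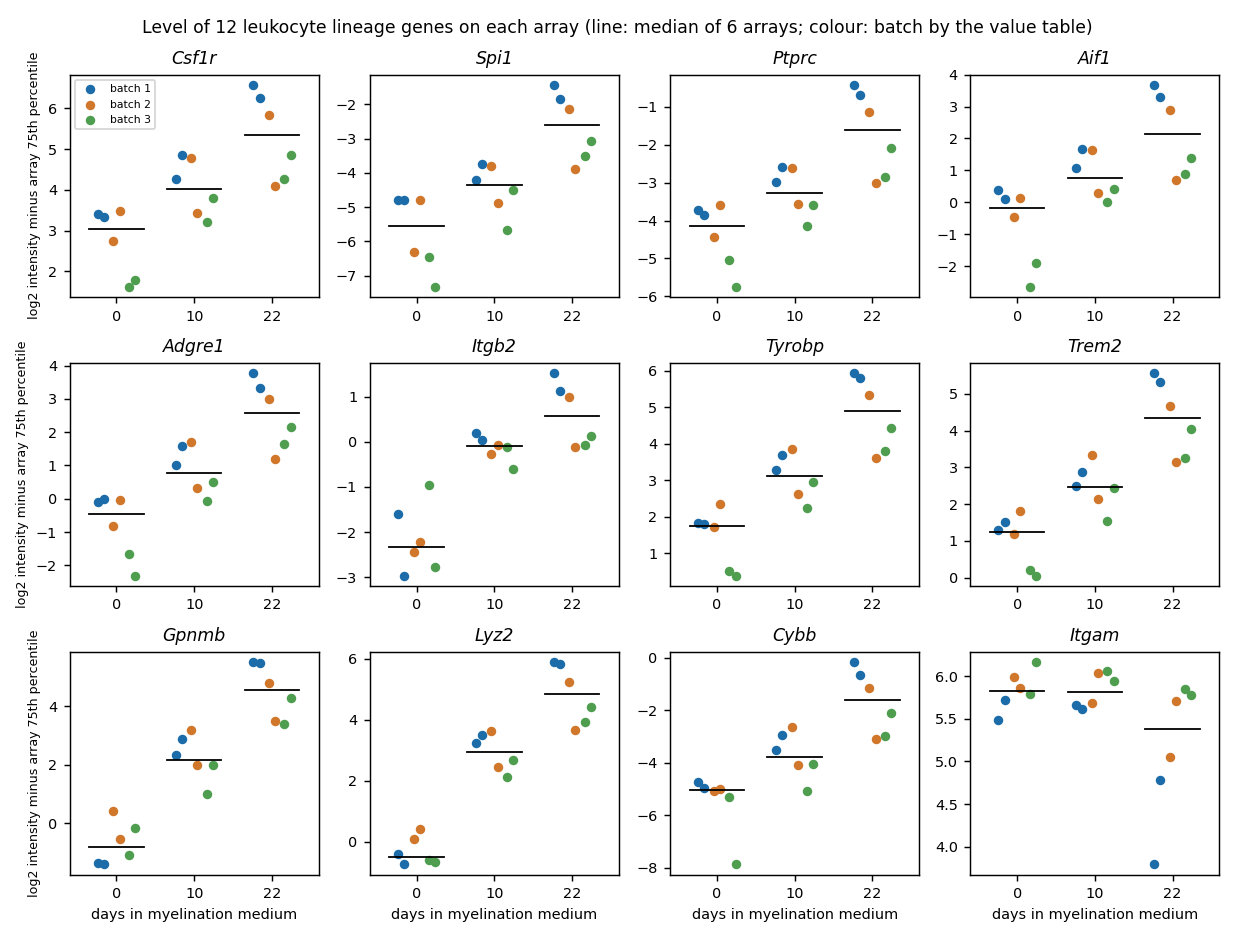
Level of 12 of the genes on each array (log2 intensity minus the array's 75th percentile) against days in myelination medium; points are arrays, coloured by batch as the value table gives it, and lines are medians of 6 arrays. In 11 of the 12 panels the day 22 arrays lie above the day 0 arrays, and in the Itgam panel, drawn from its brightest probe, the days overlap.

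Of the 8 general leukocyte membrane genes, 7 rose by day 22 with both assignments. Ptprc, which encodes the phosphatase CD45 carried by all leukocytes, had levels of -5.75, -4.14 and -3.58 at day 0, -4.14, -3.27 and -2.59 at day 10, and -3.00, -1.61 and -0.42 at day 22. The change over the course was 2.70 ± 0.41, or 6.50-fold (adjusted p = 0.00118 and 0.0103). At the probes used, Cd84, a self-binding receptor of the SLAM family, changed most of the 8, by 3.87 ± 0.42. Its mean levels were -3.49, -1.65 and 0.37 at days 0, 10 and 22. That rank depends on the probe: the other Cd84 probe changed by 1.33, and second probes of Cd48 and Cd37 by 4.55 and 3.88. Cd48, a relative of Cd84, had means of -1.85, -0.45 and 1.42 at those days, a change of 3.26 ± 0.39 over the course. The tetraspanin gene Cd53 had -3.57, -1.97 and -0.29, a change of 3.28 ± 0.35, and the small glycoprotein gene Cd52 had -1.72, 0.10 and 1.74, a change of 3.46 ± 0.61. All 6 day 22 arrays lay above all 6 day 0 arrays in these genes and in the next pair. Laptm5, a lysosomal membrane protein of blood cells, had means of -0.35, 0.98 and 2.67, a change of 3.02 ± 0.36. The tetraspanin gene Cd37 had -1.74, -1.23 and -0.11, a change of 1.63 ± 0.25. The largest adjusted p among these 6 genes was 0.00232 with the array files' batches and 0.0145 with the value table's, both of Cd52. Cd86, a ligand that co-stimulates T cells, had a difference of 3.05 ± 0.62 that passed with the array files' batches (adjusted p = 0.00456) and not with the value table's (0.0541; 0.00108 to 0.169 over all alternatives). Its lowest day 22 array, at -3.31, was below its highest day 0 array, at -2.65.

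Among the macrophage surface, sensing and other marker genes of the 34, 8 of the 11 tested rose. Adgre1, an adhesion receptor used as the standard mark of mouse macrophages, had levels of -2.31, -0.45 and -0.01 at day 0, -0.07, 0.77 and 1.70 at day 10, and 1.20, 2.59 and 3.77 at day 22, a change of 3.34 ± 0.42 (adjusted p = 0.000464 and 0.00456). Aif1, the actin-binding protein IBA1 used to stain macrophages and microglia, lay at -2.65, -0.18 and 0.37, then 0.02, 0.75 and 1.66, then 0.71, 2.13 and 3.69 on the same days, a change of 2.88 ± 0.56 (adjusted p = 0.00377 and 0.0236). For both genes the day 22 arrays were all above the day 0 arrays, and day 10 overlapped each. Cd14, the co-receptor for bacterial lipopolysaccharide, lay at -2.90, -1.39 and -0.95, then -0.98, 0.01 and 0.86, then 0.75, 1.83 and 2.81, a change of 3.45 ± 0.35 (adjusted p = 0.000153 and 0.00257).

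Trem2, a receptor for lipids and cell debris, and Tyrobp, the adaptor DAP12 through which it signals, moved side by side. Trem2 had levels of 0.06, 1.25 and 1.81 at day 0, 1.55, 2.47 and 3.33 at day 10, and 3.14, 4.35 and 5.55 at day 22, a change of 3.31 ± 0.36. Tyrobp had 0.39, 1.76 and 2.36 at day 0, 2.24, 3.12 and 3.86 at day 10, and 3.62, 4.90 and 5.93 at day 22, a change of 3.39 ± 0.39 (adjusted p = 0.00022 for Trem2 and 0.000292 for Tyrobp, and 0.00281 and 0.00285 with the value table). In neither gene did a day 22 array reach down to a day 0 array. Msr1, the class A scavenger receptor, was well above background on 4 arrays of day 0 and lay there at -6.54, -4.84 and -4.11, then at -4.20, -3.32 and -2.57 at day 10 and -2.81, -1.27 and 0.13 at day 22. Its change over the course was 3.78 ± 0.49 (adjusted p = 0.00051 and 0.00225), or 2.13 to 5.07 over the alternatives.

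Gpnmb, a membrane glycoprotein of the lysosome in lipid-laden macrophages, had with Lyz2 the largest changes of the 32 genes. Its levels were -1.41, -0.80 and 0.43 at day 0, 1.01, 2.18 and 3.19 at day 10, and 3.38, 4.55 and 5.51 at day 22, so that no day overlapped another. The change from day 0 to day 22 was 5.18 ± 0.38, or 36.2-fold (adjusted p = 3.64e-05 and 0.000356). Lyz2, at 5.15, was within that standard error, so the pair is not ranked. Melanocytes also use Gpnmb, and of 4 melanocyte markers tested Tyrp1 (3.91 ± 0.39) and Mitf (1.80 ± 0.12) rose over the course and the other 2 did not pass. Their part in the Gpnmb values was not tested.

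The integrin pair CD11b and CD18, encoded by Itgam and Itgb2, did not run in parallel at the probes used. Itgb2 had levels of -2.97, -2.33 and -0.96 at day 0, -0.61, -0.09 and 0.19 at day 10, and -0.11, 0.57 and 1.52 at day 22. It rose by 2.02 ± 0.29 to day 10 (adjusted p = 0.0022 and 0.00767) and by 2.76 ± 0.29 over the course (adjusted p = 0.000201 and 0.000566). Itgam lay at 5.48, 5.83 and 6.16 at day 0, 5.62, 5.81 and 6.06 at day 10, and 3.79, 5.38 and 5.85 at day 22, with a difference of -0.67 ± 0.29 over the course (adjusted p = 0.094 and 0.165). Its probes disagreed, however: a dimmer probe had means of -3.47, -2.89 and -1.61 at the days in order, a difference of 1.87, and another had -4.18, -3.99 and -3.79, a difference of 0.39. With the mean of the 3 probes the difference was 0.53 (adjusted p = 0.0171, within 0.0105 to 0.373 over all alternatives), so no direction is given for Itgam.

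Cx3cr1, the receptor for the neuronal chemokine fractalkine, and Ly86, the partner protein MD-1 of a Toll-like receptor relative, did not pass with either assignment without a batch block. Cx3cr1 spread widely on each day, at -1.78, 0.36 and 1.56 at day 0, -0.67, 0.77 and 2.50 at day 10, and -0.30, 1.94 and 2.67 at day 22. Its difference of 1.51 ± 0.58 over the course had an adjusted p of 0.0659, and of 0.182 with the value table. With batch as a block it passed, at an adjusted p of 0.000625 with the array files' batches and 0.0433 with the value table's (0.000625 to 0.491 over all alternatives). Ly86 had mean levels of 3.98, 4.62 and 4.05 at days 0, 10 and 22 and a difference of 0.07 ± 0.31 over the course (adjusted p = 0.878 and 0.914).

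All 6 lysosome and oxidase genes rose. Lyz2, the lysozyme of macrophages and granulocytes, had levels of -0.74, -0.50 and 0.41 at day 0, 2.13, 2.96 and 3.63 at day 10, and 3.66, 4.85 and 5.89 at day 22. As with Gpnmb, no day overlapped another, and the change over the course was 5.15 ± 0.38, or 35.6-fold (adjusted p = 3.81e-05 and 0.000259). Ctss, the protease cathepsin S of antigen-presenting cells, lay at -0.52, 1.29 and 1.88 at day 0, 1.76, 2.89 and 3.69 at day 10, and 3.44, 4.86 and 6.19 at day 22, a change of 3.92 ± 0.48 (adjusted p = 0.00039 and 0.00301).

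The phagocyte oxidase is built on a membrane pair of Cybb and Cyba, to which cytosolic proteins, among them Ncf1, Ncf4 and Rac2, are recruited. Cybb lay at -7.87, -5.04 and -4.72 at day 0, -5.08, -3.77 and -2.65 at day 10, and -3.09, -1.63 and -0.18 at day 22. It was well above background on 3 arrays of day 0, and its change over the course was 3.79 ± 0.56 (adjusted p = 0.000991 and 0.00422). Arrays near background make this size uncertain too, and it was 1.84 to 4.37 over the alternatives, lowest with normexp and quantile normalization. Cyba had means of 3.10, 4.13 and 5.03 at days 0, 10 and 22, a change of 1.93 ± 0.24 over the course (adjusted p = 0.000467 and 0.00261). Ncf4 had -1.90, 0.10 and 1.60, a change of 3.51 ± 0.35 (0.000148 and 0.00191), and Rac2 had -2.41, -0.93 and 0.31, a change of 2.73 ± 0.38 (0.0007 and 0.00497). In all 4 oxidase genes the day 22 arrays were above the day 0 arrays. The oxidase genes listed outside the 34 include subunits of oxidases other than that of phagocytes. Of these listed genes, Ncf1 rose by 3.01 ± 0.35, and the other 3 tested did not pass.

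Of the 4 signalling and actin genes tested, 3 rose over the course. Vav1, an exchange factor for Rac proteins, had means of -0.96, 0.42 and 2.08 at days 0, 10 and 22, a change of 3.04 ± 0.42. The actin-bundling protein gene Lcp1 had -0.31, 1.19 and 2.52, a change of 2.83 ± 0.36, and Plek, a substrate of protein kinase C, had -0.37, 0.47 and 2.25, a change of 2.61 ± 0.41. Their largest adjusted p was 0.00126 with the array files' batches and 0.0104 with the value table's. Coro1a, an actin regulator of leukocytes that neurons also use, lay at 1.96, 3.01 and 3.16 at day 0, 2.81, 3.11 and 3.29 at day 10, and 3.02, 3.38 and 3.58 at day 22, so that its days overlapped. It had a difference of 0.50 ± 0.15, which passed with the array files' batches (adjusted p = 0.0254) and not with the value table's (0.0544; 0.00868 to 0.460 over all alternatives).

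**Figure D2:**
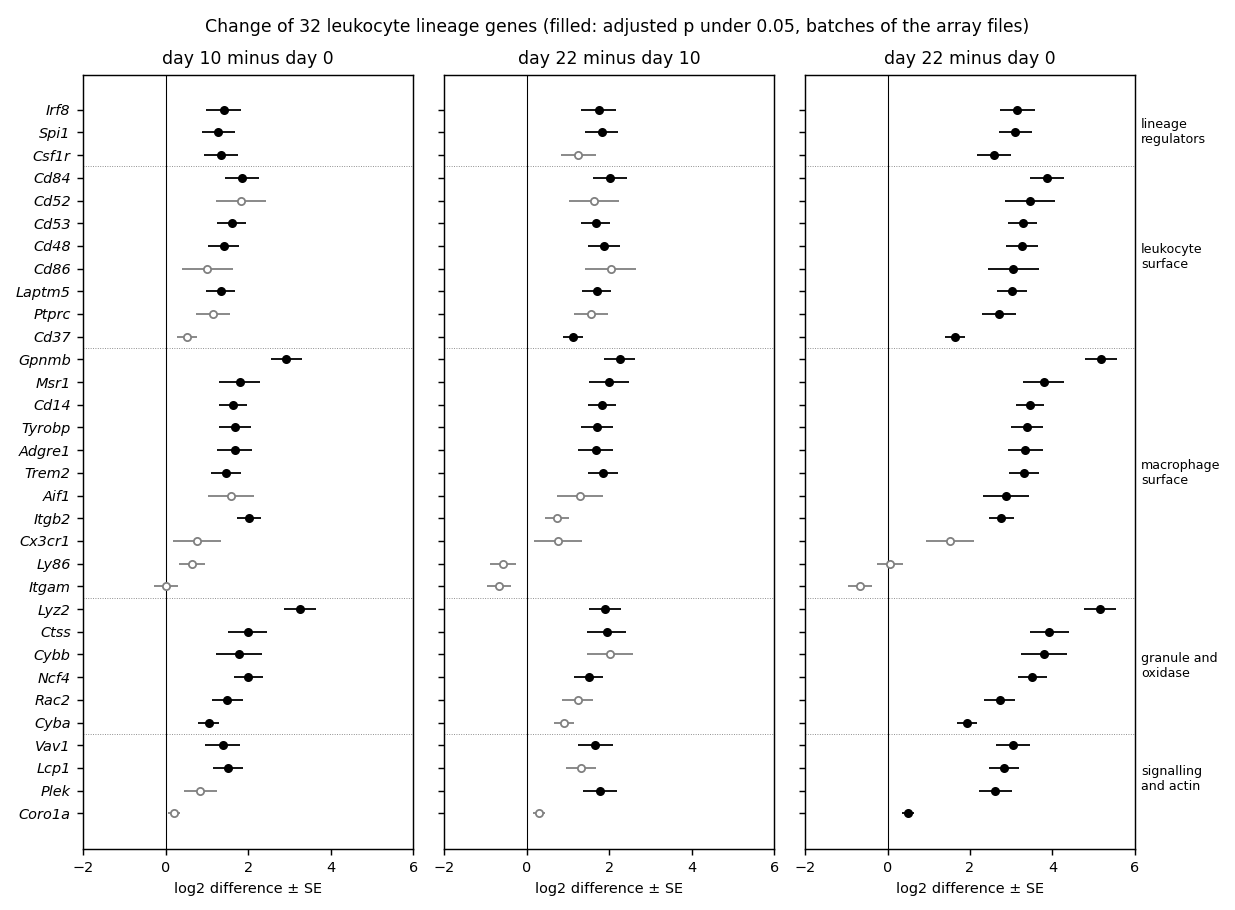
Log2 difference ± standard error of the 32 tested genes for day 10 minus day 0, day 22 minus day 10 and day 22 minus day 0, grouped by role; filled points had an adjusted p under the threshold with the array files' batches. Differences over the whole course lie mostly around the median of 3.07, with Gpnmb and Lyz2 beyond 5 and Itgam at -0.67.

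Fewer genes passed within either interval than over the whole course. From day 0 to day 10, Gpnmb (2.92 ± 0.38), Lyz2 (3.26 ± 0.38), Itgb2 (2.02 ± 0.29) and Ncf4 (2.00 ± 0.35) rose with both assignments. These are 4 of the 32 genes, where 5.74% of features rose and 7.72% fell. The count was 22 with the array files' batches (11.4% of features), 4 with the value table's (5.89%), and 25 where the value table's batch was also a block (7.43%). The arrays of day 10 lay above those of day 0 in 9 of the 32 genes, against 7.92% of features. The median difference was 1.47, or 2.77-fold, beside -0.06 over all features. With the array files' batches the count was 9 without batch 2 of day 0, 10 without batch 3 of day 0, 7 without batch 1 of day 10 and 11 without batch 2 of day 10.

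From day 10 to day 22, 0 of the 32 genes rose with both assignments, where 0.477% of features rose and 1.43% fell. With the array files' batches limma called 18 of 32 higher (4.19% of features), with the value table's 0 (0.512%), and with the value table's batch as a block 14 (1.37%). Gpnmb, at 2.26 ± 0.38 (adjusted p = 0.0111 and 0.0719), and Lyz2, at 1.90 ± 0.38 (0.0211 and 0.0857), were the genes with all day 22 arrays above all day 10 arrays, 2 of 32 beside 3.15% of features. With the array files' batches the count was 28 without batch 3 of day 22, 10 without batch 1 of day 22 or batch 3 of day 0, 5 without batch 1 of day 10, and 1 without batch 2 or 3 of day 10 or batch 2 of day 22. The median difference of 1.67, or 3.19-fold, stood beside 1.47 in the first interval. The second interval was the longer of the pair, and neither these differences nor the contrast that follows was scaled to a day. Set directly against each other, the intervals differed in 0 of the 32 genes by limma's adjusted p with either assignment, and at an unadjusted p under 0.05 in 1, Itgb2, whose first interval was larger by 1.28 ± 0.51 (unadjusted p = 0.0343). Of all 22843 features, 815 (3.57%) passed the adjusted threshold with the array files' batches and 0 with the value table's, and 4697 had an unadjusted p under 0.05.

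The genes varied together between arrays of the same day, and far more than most features did. The range over 6 arrays had a median of 1.89, 1.65 and 2.47 for the 32 genes at days 0, 10 and 22, beside 0.595, 0.403 and 0.563 for all features. At day 22, 29 of the 32 genes were highest on the same array, the first of batch 1 by either assignment, and 27 were lowest on another. That lowest array is the second of batch 2 by the value table, and its pair in that table differed by a median of 1.71 in the 32 genes and 0.196 in all features. After that pair, the value table's largest differences in the 32 genes were 1.20 (batch 2 of day 10) and 0.72 (batch 2 of day 0). Its smallest was 0.19 (batch 1 of day 0). By the array files, pairs differed in the 32 genes by up to 1.91 (batch 2 of day 22), 1.71 (batch 3 of day 0) and 1.51 (batch 2 of day 10). The smallest there was 0.32 (batch 3 of day 10). Over features, the estimated correlation between arrays of a batch was -0.02 with the array files' batches and 0.36 with the value table's. Which assignment is right was not settled. At day 0, 26 of 32 were lowest on an array of the value table's batch 3, and at day 10, 24 of 32. Taken array by array, the median of the 32 genes about their own means ran from -2.54 to -0.74 at day 0, -0.90 to 0.72 at day 10 and 0.23 to 2.81 at day 22.

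**Figure D3:**
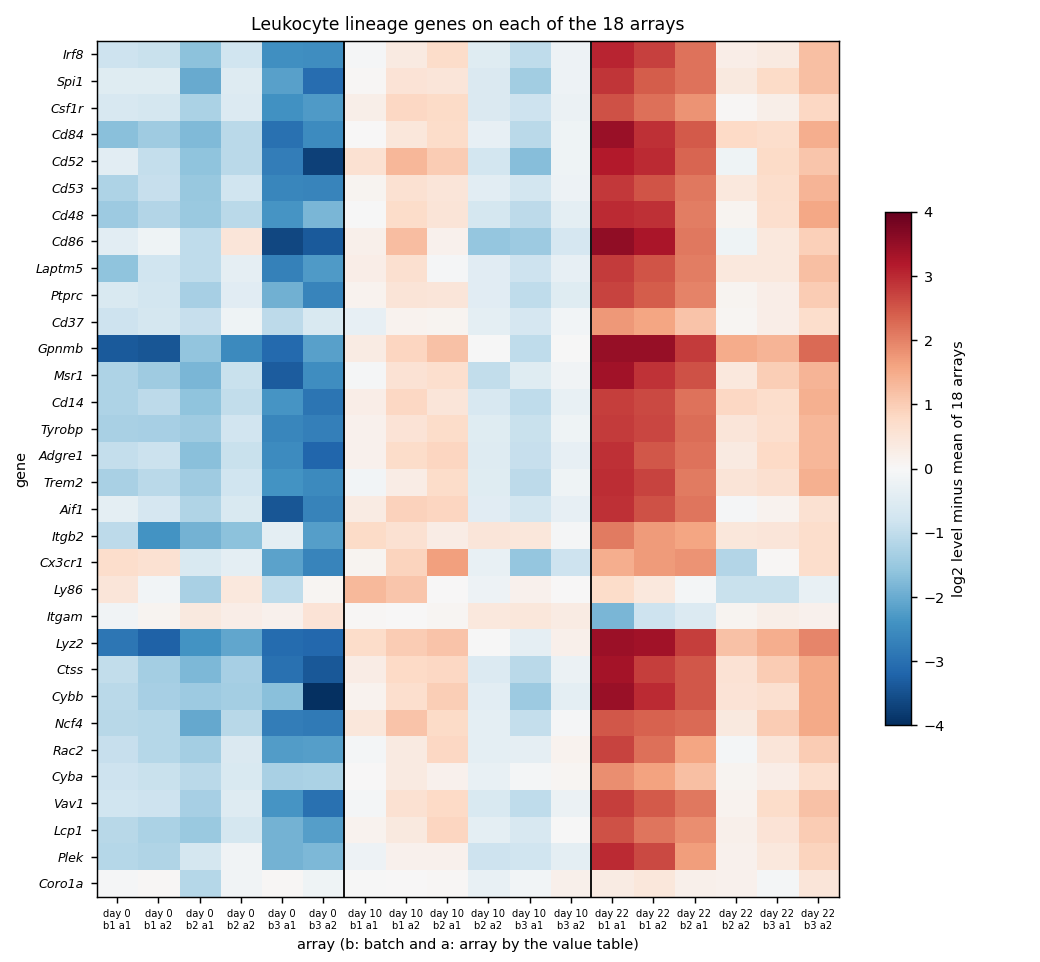
Level of each of the 32 genes (rows, by role) on each of the 18 arrays (columns, by day and then by batch and array as the value table gives them), minus the gene's mean over 18 arrays on the log2 scale. Within a day most rows darken and fade on the same arrays, while at day 22 the Itgam row runs the other way and the Coro1a row varies little.

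Lists of other cells spanned narrower ranges at day 22, and the fibroblast list moved with the 32 genes between arrays. At day 22 the medians of the Schwann cell, sensory neuron and fibroblast lists spanned -0.79 to 0.34, -0.58 to 0.25 and -0.35 to 0.63, where the 32 genes spanned 0.23 to 2.81. On the array where the 32 genes were highest, at 2.81, the Schwann cell list was at its lowest, -0.79, and the fibroblast list at its highest, 0.63. At day 0 the Schwann cell and sensory neuron lists spanned -0.42 to 0.03 and -0.71 to 0.37. The fibroblast list, from -1.28 to 0.47, spanned nearly as much there as the 32 genes, from -2.54 to -0.74. It put the 6 arrays of day 0 in the same order as the 32 genes, and at day 22 the orders were alike but for the lowest pair of arrays. At day 10, from -0.29 to 0.42, it did not follow their order. The part of differing cell makeup in this spread was not tested.

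Other macrophage genes, listed by name, ran in the same direction. Of 23 further macrophage markers tested, 20 rose with both assignments and 0 fell, with a median change of 3.15. The largest were Fcgr2b, an inhibitory antibody receptor (5.74 ± 0.27), Slc11a1, a metal transporter of the phagosome (4.70 ± 0.36), and Folr2, a folate receptor of resident macrophages (4.52 ± 0.51). Cd68 had no matched probe, and the haemoglobin scavenger gene Cd163 was above background on too few arrays to test. Of 10 further macrophage transcription factors tested, 8 rose, among them Irf5 (3.28 ± 0.42). Tfec was not well above background on any day 0 array and was at least 6.25-fold higher at day 22.

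Signalling partners of Tyrobp and of antibody receptors rose too. Of 22 genes of this pathway tested, 20 rose and 0 fell, with a median of 2.44. Pirb, an inhibitory receptor, changed by 4.77 ± 0.41 and the adaptor gene Blnk by 3.83 ± 0.43, and Sirpb1a, an activating receptor, was at least 9.98-fold higher at day 22, being not well above background at day 0. Of the other leukocyte integrin genes, 3 of 8 rose and 2 fell, beside 12.6% and 18.6% of all features. Itgax, which encodes CD11c, another partner of CD18, was not well above background on any day 0 array and was at least 30.7-fold higher at day 22. Itga4, an integrin chain that many cells use, fell by 1.49 on the log2 scale (SE 0.18).

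The ligands and related receptors of the Csf1r pathway were mixed. Of 9 tested, 4 rose and 3 fell over the course, beside 12.6% and 18.6% of all features. Csf1 rose by 0.86 ± 0.13 and Il34 by 1.26 ± 0.17, and Csf2rb, the shared receptor chain for granulocyte-macrophage factor, by 3.62 ± 0.43. The stem cell factor receptor gene Kit fell by 1.76 (SE 0.25). Csf2 was above background on 0 of 18 arrays. Of 8 markers of microglia tested, 5 rose, led by Gpr34 (3.13 ± 0.54) and P2ry13 (2.80 ± 0.48), and 1, Siglech, fell by 0.48 (SE 0.09).

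**Figure D4:**
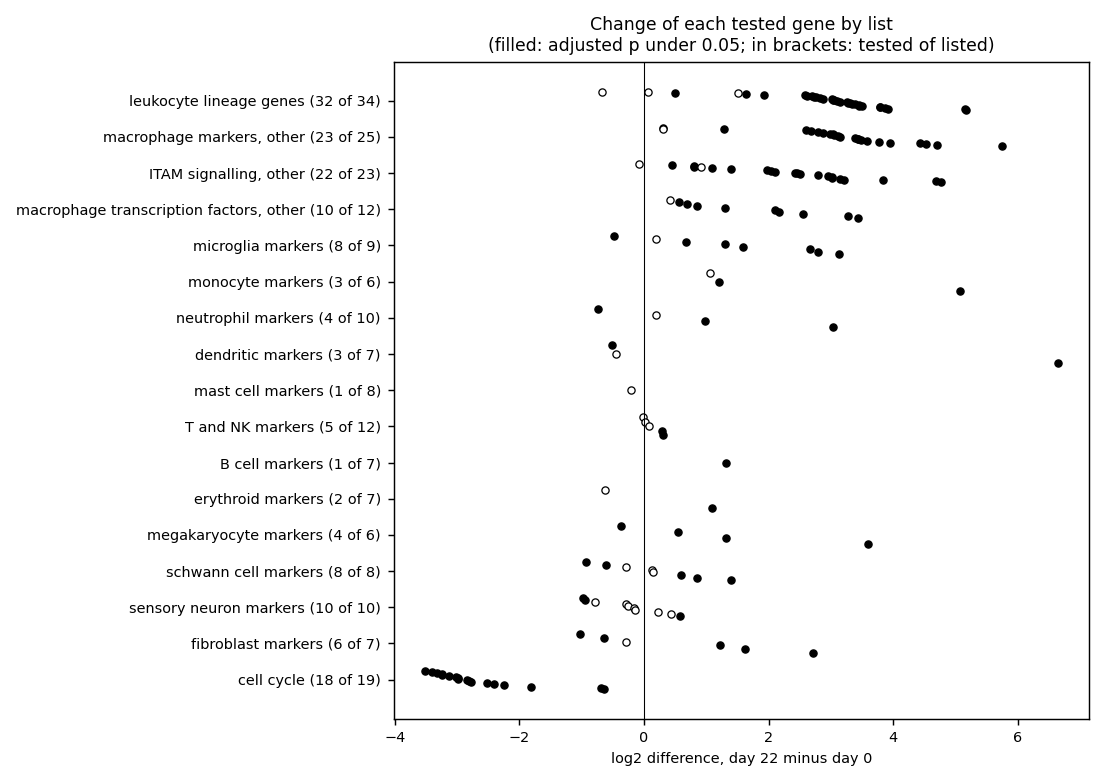
Log2 difference, day 22 minus day 0, of each tested gene (points) in the 32 leukocyte lineage genes and in 16 other lists; filled points had an adjusted p under the threshold with the array files' batches, and brackets give tested of listed genes. Other macrophage genes reach as high as the 32, most T cell, B cell and mast cell markers were too dim to test, and cell cycle genes lie below 0.

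Some markers of other blood cells were above background on 0 of 18 arrays, and others on too few arrays to test. Most lists of such markers therefore had few testable genes. T cell genes Cd3d, Cd3g, Cd2 and Cd8a were above background on 0 of 18 arrays. Of the 12 T and natural killer cell markers, however, 5 were tested and 4 were well above background on all 18 arrays. Of the 5 tested, 0 passed with both assignments. B cell genes Ms4a1 and Pax5 were likewise at 0 of 18, though the B cell gene Cd22 rose by 1.32 ± 0.10. The monocyte chemokine receptor Ccr2 was at 0 of 18 arrays, and of the 3 monocyte markers tested Plac8 (5.07 ± 0.96) and Vcan (1.20 ± 0.40) rose. Of the neutrophil markers, Ngp was at 0 arrays and S100a9, Ltf and Cxcr2 at 1 each. Camp rose by 0.98 ± 0.14, and S100a8 was at least 2.45-fold higher at day 22, being not well above background at day 0. Dendritic cell genes Xcr1, Clec9a and Cd209a were at 0, as were the mast cell genes Fcer1a and Ms4a2. Of the 3 dendritic cell markers tested, Itgax rose, as given above, Zbtb46 fell by 0.51 (SE 0.07), and Batf3 did not pass, at -0.45 ± 0.18.

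Among megakaryocyte markers 3 of 4 tested rose, led by Pf4 (3.60 ± 0.57), and Gp9 was at 0 of 18 arrays. All 18 cell cycle genes tested fell, with a median of -2.91 over the course, led by Kif11, which fell by 3.51 (SE 0.21). The Schwann cell list had 2 of 8 markers higher and 1 lower, the sensory neuron list 0 of 10 higher and 1 lower, and the fibroblast list 1 of 6 higher and 2 lower. Of all features, 12.6% rose and 18.6% fell with both assignments. Whether these short lists differ from those shares was not tested.

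Of the 32 genes, 12 had more than 1 probe, and 5 of these had probes that changed by clearly different amounts. For Csf1r the probe used and a dimmer probe changed by 2.59 and 2.69 over the course, while another dimmer probe changed by 0.72. Cd37 changed by 1.63 at its brightest probe and by 3.88 at the other, Cd48 by 3.26 and 4.55, and Cd84 by 3.87 and 1.33. The second Cd84 probe had a difference of -0.41 from day 0 to day 10, against 1.84 at the first. Several of these second probes were dim: at day 0 that of Cd37 was well above background on 3 of 6 arrays and those of Cd48 and Cd84 on 5, and at day 10 that of Cd84 on 4, so the sizes of their changes are uncertain. The second Msr1 probe was well above background on 0 arrays of day 0 and gives no size.

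**Figure D5:**
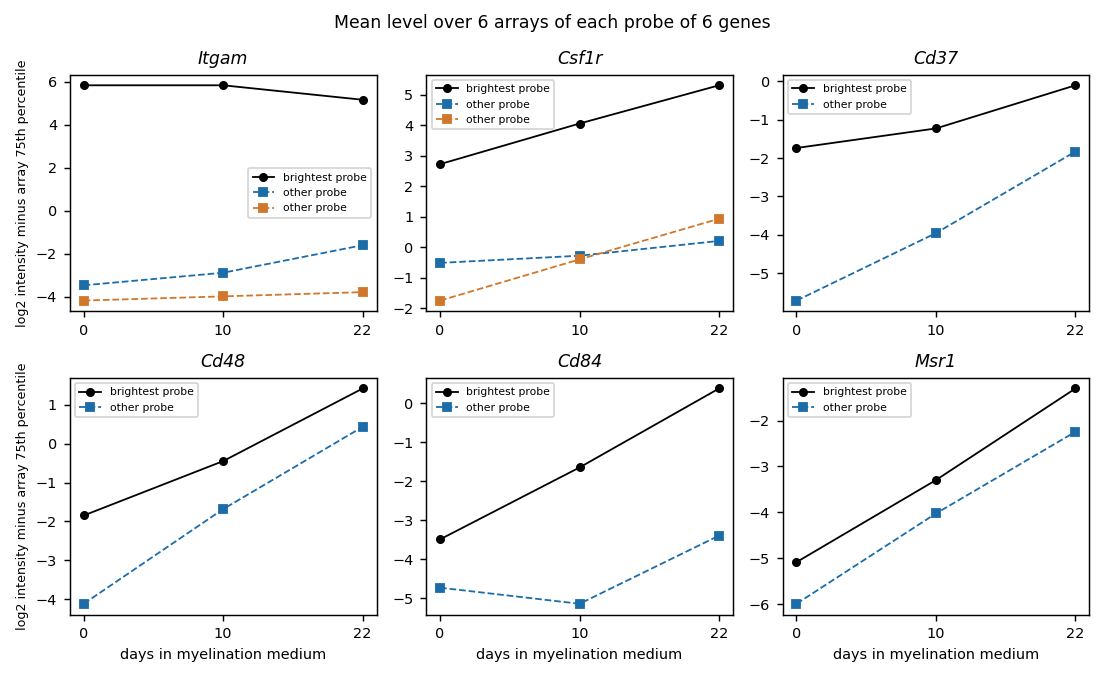
Mean level over 6 arrays of each probe of 6 genes at days 0, 10 and 22 (log2 intensity minus the array's 75th percentile); solid black lines are the brightest probes, used in the tests, and dashed lines are other probes, some of them near background at day 0. The Itgam probes part ways, with the brightest at 5.16 on day 22 against 5.83 on day 0 and the others higher at day 22.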

How the data were processed

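RNA (100 ng) was labelled with Cy3 and hybridised to 18 one-colour Agilent arrays, per the labels' protocols. Intensities were extracted with Agilent Feature Extraction 10.7.1, per the submitters' processing notes, and the deposited intensity column used is the processed signal, background-corrected per the file headers. The deposited value table holds the authors' quantile-normalized linear intensities and served as an alternative. Each array has 62976 spots, 3671 of them controls. Between 54.8 and 61.5% of the other spots were well above background, 93 to 181 were outliers and left out, and 0 were saturated. From the deposited intensities, log2 values minus each array's 75th percentile were computed, with the mean taken where a probe has several spots. The filter on dim probes asked for a signal well above background on every array of 1 day or more (6 arrays), and left 30419 of 55681 probes. The files pair probes with accessions only. Matched to RefSeq (GRCm38.p6), 26582 probes took one of 20145 symbols. The brightest probe stood for a gene.

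The technical arrays of a batch were averaged, and limma 3.58.1 (R 4.3.3) was fitted to the 9 batch values, with Benjamini-Hochberg adjustment over 22843 features. The fit was tested on simulated data. At-least folds set the bright day's mean against the lowest signal well above background on each array of the dim day. The pairing of batch numbers across days was checked by the correlation of deviations from the day means, which ran from -0.13 to 0.37 over 9 pairs with the array files' batches and from -0.08 to 0.46 with the value table's. The design text says that batches are pools of embryos collected at different times and does not say that a number marks the same pool at each day. Members, lists and tests were chosen with earlier results of these data known. Every member is accounted for, and at most the 3 tested genes with the largest change are named from each other list. Csf1, Siglech, Cd68 and the genes at background were named after their values were seen. The planned mean-signal column for normexp (offset 50) is replaced by the median signal. The number of arrays limits the precision.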

Additional observations from a re-analysis of the deposited data

Results flagged for a closer look

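Among 96 groups of 6 arrays (32 genes at each of 3 days), 2 held an array far from the others, and chance gives about 5% of groups. Coro1a had its lowest day 0 array at 1.96 and the nearest of the others at 2.94, a gap of 0.817 of the day's range. Cybb had its lowest day 0 array at -7.87 and the nearest at -5.30, also a gap of 0.817 of the range. The critical value is 0.625. The Cybb probe was well above background on 3 of its 6 day 0 arrays.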

How the results depend on the processing

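Over the whole course the 27 genes called with both batch assignments kept their direction in 806 of 806 values under the alternatives and passed in 797. These tallies were partly fixed in advance. The alternatives include the value table's batches, by which the 27 were chosen. In all 27 every day 22 array lay above every day 0 array, so fits that leave out or regroup the same values could not turn a direction. A turn was possible where the values changed, as with the authors' values, normexp or the mean of probes. The count of genes higher at day 22 than at day 0 stayed at 26 to 30 when each batch was left out in turn (28 to 30 with the array files' batches, 26 to 29 with the value table's) and was 20 on slide 2 alone. Fits on 1 slide took single arrays as units, so their counts do not rest on replicate batches. The 2 day 22 arrays of slide 1 are of batch 1 by the array files and of batches 1 and 2 by the value table. Itgam passed as 1 lower gene with the replicate block, with the 18 arrays and batch as a random block, with slide as a block, on slide 1 alone, and without batch 3 of day 22 by either assignment; for day 22 minus day 10, 1 gene was lower with slide as a block and without batch 3 of day 22. The intervals depended on the batches. For day 10 minus day 0, the 22 genes higher became 4 with the value table's batches, 4 with the authors' values in those same batches, 2 on slide 1 and 2 on slide 2, and 7 to 26 when a batch was left out (3 to 16 with the value table's batches). For day 22 minus day 10, the 18 became 0 with the value table's batches, 28 with the replicate block, 0 with the authors' values in the value table's batches, 6 with no filter on dim probes, 3 on slide 1 and 0 on slide 2, and 1 to 28 when a batch was left out (0 to 1 with the value table's batches). The cause was not tested. With the array files' batches, the replicate block gave 26 genes for day 10 minus day 0 and 30 for day 22 minus day 0. Directions turned for 4 genes, none of them called with both assignments in that comparison. Itgam from day 0 to day 10 was 0.026 with the authors' values in the value table's batches, 0.022 with normexp and quantile normalization, 0.26 with the mean of probes, 0.042 with slide as a block, 0.049 on slide 1, 0.090 without batch 3 of day 0 and 0.080 without batch 1 of day 10, and with the value table's batches 0.045 and 0.071 without batches 2 and 3 of day 0 and 0.096 without batch 1 of day 10. Leaving out a batch of the array files, it ran from -0.078 to 0.090. With the mean of probes Itgam was 0.27 from day 10 to day 22 and 0.53 over the course. Ly86 over the course was -0.44 on slide 2, -0.014 and -0.092 without batches 1 and 2 of day 0 and -0.18 without batch 1 of day 22 (up to 0.318 without batch 3 of day 0), and with the value table's batches -0.031 and -0.043 without batches 2 and 3 of day 0 and -0.31 without batch 1 of day 22. Without batch 3 of day 0 in the value table, Cd86 and Cx3cr1 had -0.065 and -0.076 from day 0 to day 10. Leaving out batches within the value table's assignment and the contrast between intervals were chosen after seeing the data. Probes near background (Spi1, Cybb, Cd86, Msr1 and Ptprc at day 0) limit the size of a change.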
